A study of Mus musculus with 6 samples.

Results

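The genes described here mark the blood vessels, the contractile peritubular wall and the connective-tissue matrix of the mouse testis. The 35 members were taken by gene symbol from a deposited table of 54532 Ensembl genes. They were divided by role into 12 contractile genes, 13 endothelial genes, 4 receptor and pericyte genes and 6 collagen and matrix genes. The libraries were 3 from testes with the long non-coding RNA gene 1700052I22Rik knocked out (KO) and 3 from wild-type (WT) testes, and the study asked what this RNA does in spermatogenesis. Strain, age, the deleted part of the gene, and whether each library came from its own animal are not given in the labels, so p-values measure only the spread between these samples. Read counts were scaled by library size and TMM factors to CPM, and differences were tested with edgeR's quasi-likelihood test over 19320 genes with Benjamini-Hochberg adjustment and a threshold of 0.05.

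Seminiferous tubules are wrapped by flattened peritubular myoid cells, which contract through smooth muscle actin and myosin and lay down the basement membrane together with the Sertoli cells inside. Capillaries run in the interstitium between the tubules, beside Leydig cells, fibroblast-like stromal cells and macrophages, and no vessel enters the tubule. Endothelial cells are known by their junction proteins and by the receptors for vascular endothelial growth factor and angiopoietins. Pericytes and stromal cells respond to platelet-derived growth factor, and fibrillar collagens with decorin make up the matrix around them. Somatic cells give a small share of the RNA of a whole adult testis, and in such bulk RNA fewer cells of a type and less RNA per cell cannot be told apart.

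Library totals ran from 17635045 to 18117593 counts. The targeted transcript had 0, 0 and 0 reads in KO 1 to KO 3, against 185, 175 and 218 in WT 1 to WT 3. KO 2 and WT 1 stood apart on the first principal component (26.6% of the variance). They scored 30.2 and 22.8 there, and the other 4 libraries from -17.5 to -6.98. Their summed Leydig cell markers were also the lowest, at 297 CPM in KO 2 and 264 in WT 1 against 492 to 928 CPM in the other 4. Cyp17a1, Cyp11a1, Hsd3b1, Lhcgr and Hsd17b3 were lower in both than in the other 4, but Hsd3b6, Star and Insl3 were not. Insl3 was at 78.8 CPM in WT 1, against 55.6 in KO 1 and 55.0 in KO 3. Values without both libraries are therefore given below with those of the subsets.

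None of the 35 members passed the test over all genes. One of them, Tagln, had too few reads to be tested. Among all tested genes the test called 1, or 0.00518%, the target itself. The adjusted p of the 34 tested members lay between 0.965 and 0.992. At an unadjusted p under 0.05 in edgeR's test there were 6 of the 34 (17.6%), against 4.63% of all genes (2.22% lower and 2.41% higher in KO). Epas1, Tpm2, Col4a1, Esam and Cdh5 were lower and Flt1 higher in KO. The count depends on the tool. With DESeq2 the unadjusted p was 0.0507 for Cdh5 and 0.0752 for Esam, and with limma's voom it was 0.0547 for Cdh5. The groups did not overlap for 4 members (11.8%), 3 lower and 1 higher in KO, against 9.32% of all genes (4.63% lower and 4.69% higher). Of the 34, 23 (67.6%) had a log2 fold change of KO over WT below 0, against 50.7% of all genes. The median over the members was -0.12, against -0.0025 over all tested genes. The members were chosen with results of these data known and many come from the same cells, so these shares describe them and are no test of the list.

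For most members the measurement bounded the size of a difference between these samples. The 95% interval of the fold change lay within 2-fold in either direction for 32 of the 34 and within 1.5-fold for 18. Emcn and Esam, both scarce, were those whose interval reached past 2-fold. Half-widths of the intervals ran from 0.18 on the log2 scale for Actg2 to 0.88 for Emcn.

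**Figure D1:**
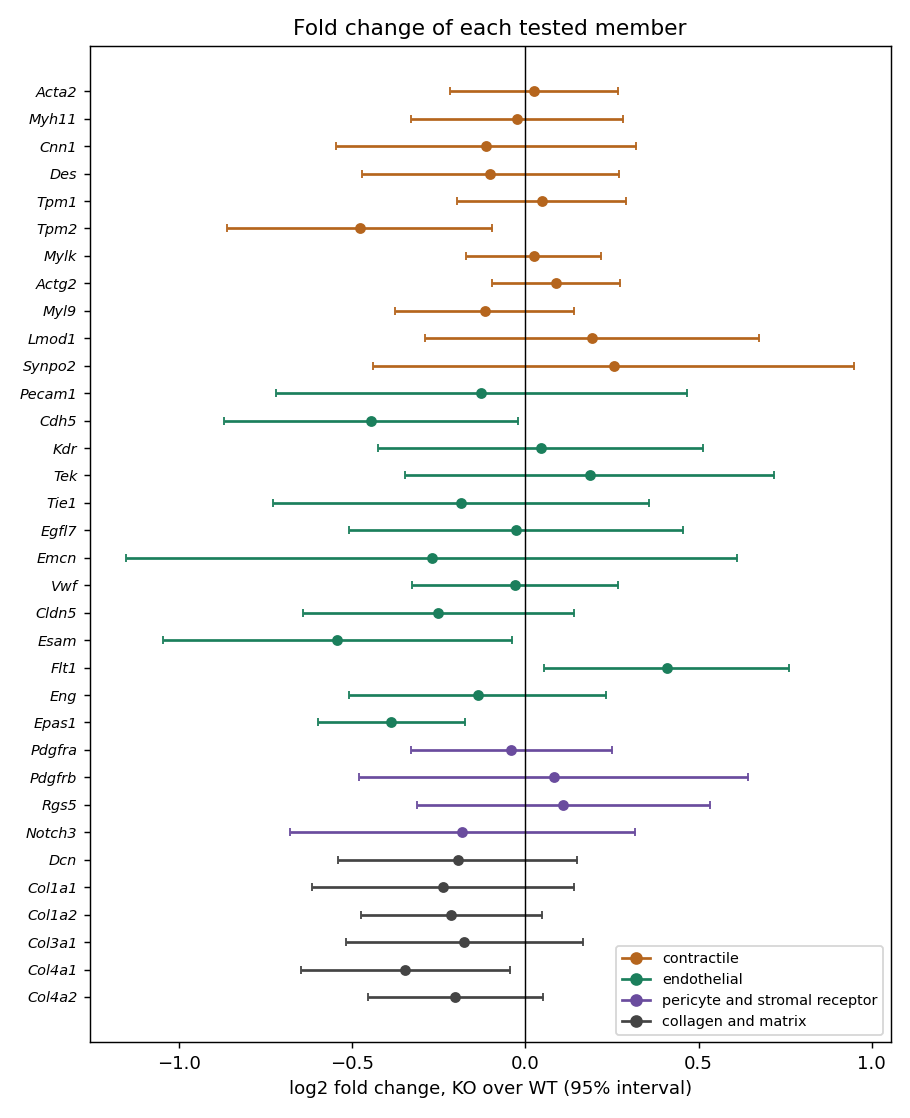
Log2 fold change of KO over WT (x axis) for each of the 34 tested members (y axis), coloured by subset, with points for the fitted value and bars for its 95% interval. The 6 collagen and matrix genes all lie left of 0, between -0.35 and -0.18, while the contractile genes lie on both sides and 6 of the 34 intervals leave out 0.

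The contractile subset was dominated by smooth muscle gamma actin. Actg2 held 55.7% of the subset's summed CPM, and this actin is known in the mouse to be expressed in postmeiotic germ cells as well as in smooth muscle. It had 285, 237 and 284 CPM in KO 1 to KO 3, against 254, 234 and 270 CPM in WT 1 to WT 3. The groups overlapped, and the log2 fold change was 0.09 (95% interval -0.096 to 0.27, adjusted p = 0.967). Per kilobase of gene length, the level of Actg2 was 5.51 times that of Acta2 in KO and 5.27 times in WT.

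Acta2, the smooth muscle alpha actin that defines peritubular myoid cells, was at 61.3, 55.7 and 50.3 CPM in KO libraries and at 45.6, 60.7 and 58.2 CPM in WT libraries. Its lowest library was WT 1 and its highest KO 1, and the other values overlapped, and the log2 fold change was 0.02 (95% interval -0.22 to 0.27). Myh11, the smooth muscle myosin heavy chain, averaged 20.7 ± 3.01 CPM in KO and 21.1 ± 3.55 in WT (SD, n = 3 each), a log2 fold change of -0.02. Mylk, the kinase that switches on smooth muscle myosin, was the steadiest member. Its 6 libraries differed by no more than 1.12 times, at 40.0 ± 0.698 CPM in KO and 39.3 ± 2.48 in WT. Myl9, the regulatory light chain that this kinase phosphorylates, averaged 44.9 ± 7.05 CPM in KO and 48.7 ± 6.17 in WT (log2 fold change -0.12, 95% interval -0.38 to 0.14).

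Acta2 and Myl9 were the contractile genes whose promoter windows held a CArG box, the element bound by serum response factor, and their windows are shown for that reason. The windows are RefSeq sequences of build GRCm38.p6, and 24 of the 35 members had one. They run from 250 bases before to 50 bases after the RefSeq start of the gene. The deposited coordinates put the start elsewhere for Acta2 (34255336, minus strand) and for Myl9 (156775420, plus strand). Capitals mark CArG boxes, with 1 G or C allowed among the 6 central A or T positions. The pattern, though not each match to it, reads the same on both strands.
Acta2, chr19:34255324-34255623, minus strand: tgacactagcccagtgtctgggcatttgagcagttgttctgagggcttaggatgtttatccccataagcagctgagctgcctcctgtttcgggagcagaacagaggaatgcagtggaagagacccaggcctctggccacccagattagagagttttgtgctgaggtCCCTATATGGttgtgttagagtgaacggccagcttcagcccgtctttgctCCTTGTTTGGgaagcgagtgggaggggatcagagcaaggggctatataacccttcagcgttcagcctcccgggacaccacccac
Myl9, chr2:156775214-156775513, plus strand: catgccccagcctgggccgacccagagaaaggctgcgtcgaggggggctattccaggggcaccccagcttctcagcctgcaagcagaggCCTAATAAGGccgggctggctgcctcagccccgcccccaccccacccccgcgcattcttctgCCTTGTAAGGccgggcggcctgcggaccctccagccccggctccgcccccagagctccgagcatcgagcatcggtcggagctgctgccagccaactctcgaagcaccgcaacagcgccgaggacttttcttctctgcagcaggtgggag
The Acta2 boxes begin 84 and 34 bases before the RefSeq start, not the deposited one, and each carries 1 such substitution. The Myl9 boxes begin 161 and 99 bases before the RefSeq start, the first with no substitution and the other with 1. Members were counted by gene, with a match in any window of the gene, but the background was counted by window. The 24 members had 26 windows, and the other letter patterns below were counted in the same way. A box without substitution was in 1 of 9 contractile genes with a window and in 1.63% of all 32851 windows. With 1 substitution allowed it was in 2 of the 9, in 4 of 8 endothelial genes and in 9.98% of all windows. A match is a description of these letters and does not show that the factor binds there.

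The tropomyosins, which wind along actin filaments, had log2 fold changes of opposite sign. Tpm1 had 20.9 ± 0.704 CPM in KO and 20.2 ± 1.92 in WT (SD, n = 3 each), with a log2 fold change of 0.05. Tpm2 had 7.03, 5.45 and 5.67 CPM in KO libraries, against 8.32, 9.97 and 6.99 CPM in WT libraries. KO 1 lay just above WT 3, so the groups met, and the log2 fold change was -0.48 (95% interval -0.86 to -0.096, unadjusted p = 0.0178 and adjusted p = 0.965 in edgeR's test). The ratio of Tpm1 to Tpm2 counts was 3.07, 3.84 and 3.56 in KO libraries, against 2.18, 2.20 and 2.96 in WT libraries. All 3 KO values lay above all 3 WT values, and the two-sided exact permutation p of 0.1 is the smallest that 3 against 3 allows (0.467 adjusted over 7 pairs of members).

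Other contractile members were scarcer, and KO and WT overlapped for each. Cnn1, encoding calponin, had 4.63 ± 1.10 CPM in KO and 5.01 ± 0.136 in WT, and Des, the intermediate filament desmin, 6.81 ± 1.27 in KO and 7.30 ± 0.535 in WT (SD, n = 3 each). Lmod1, which nucleates actin filaments in smooth muscle, averaged 3.42 ± 0.383 CPM in KO and 2.99 ± 0.634 in WT. Synpo2, an actin-binding protein of the Z-disc, averaged 1.39 ± 0.305 CPM in KO and 1.16 ± 0.225 in WT. Their log2 fold changes ran from -0.11 for Cnn1 to 0.25 for Synpo2.

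Tagln, which encodes the abundant smooth muscle protein transgelin, was nearly absent from the table. It had 7, 8 and 2 reads in KO 1 to KO 3 and 8, 5 and 9 in WT 1 to WT 3, or 39 in all, against 5937 reads of Acta2. In the GENCODE M21 annotation, 67.9% of the exonic bases of Tagln are also exonic in Gm48529 or Pcsk7 on the opposite strand. How reads in such shared bases were counted is not stated in the labels or headers, and its part in the low count of Tagln was not tested. Egfl7 was the other member with over 10% of its exonic bases shared, at 11.2% with Gm20532, Mir126a and Agpat2, so its value is uncertain too.

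The summed contractile level was 507, 440 and 474 CPM in KO libraries, against 442, 457 and 488 CPM in WT libraries. KO libraries were both the highest, KO 1, and the lowest, KO 2, with the WT values between them. The log2 ratio of the means was 0.04, and 0.06 without KO 2 and WT 1. Without Actg2 the sums were 221, 203 and 191 CPM in KO, against 187, 223 and 218 CPM in WT, a log2 ratio of -0.03. Of the 11 tested contractile genes 6 had a log2 fold change above 0 and 5 below, with a median of 0.02.

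**Figure D2:**
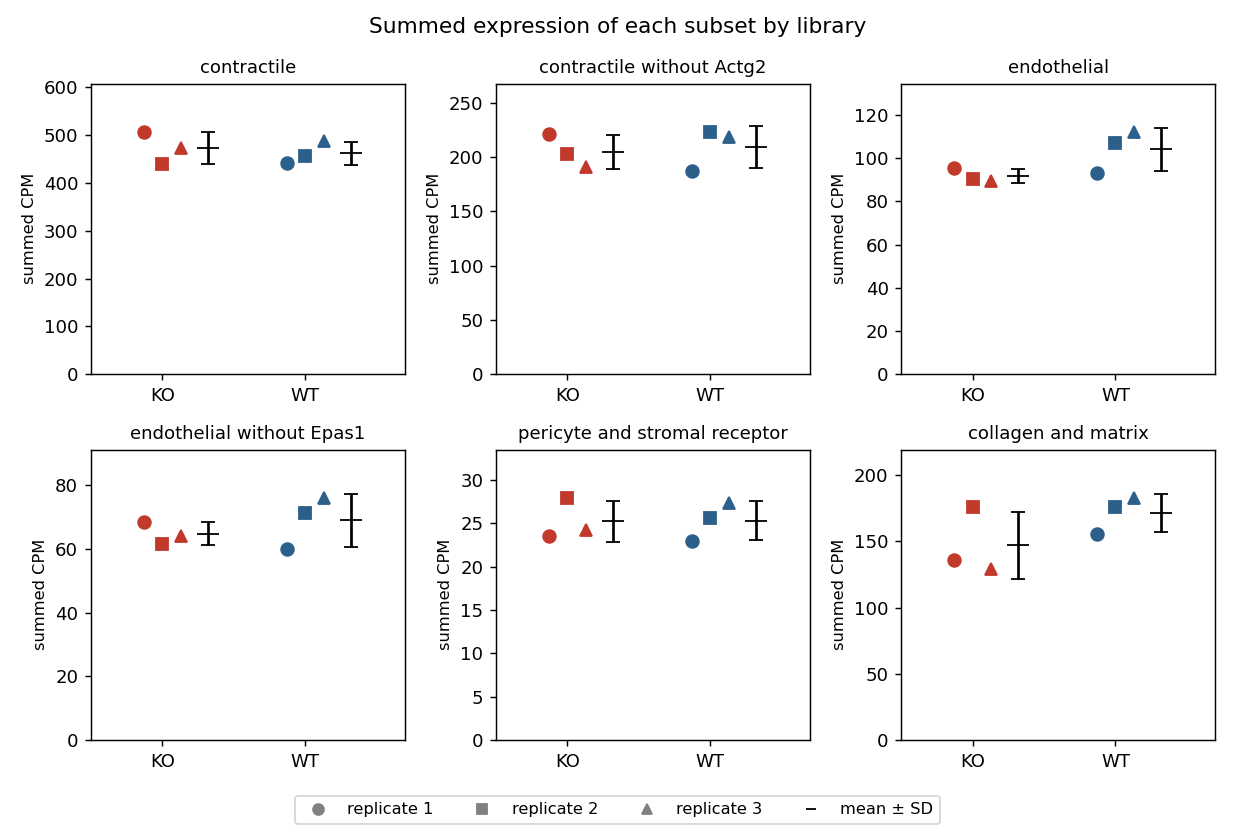
Summed CPM (y axis, from 0) of each subset in the 3 KO libraries (left of each panel) and the 3 WT libraries (right), with marker shapes for the replicate number and the mean ± SD beside them. KO and WT overlap in every panel, and in the collagen and matrix panel KO 2, at 176 CPM, stands above KO 1 and KO 3, at 136 and 129 CPM.

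Endothelial genes were led by Epas1, encoding the hypoxia-inducible transcription factor HIF-2 alpha, which is strong in endothelium but also made by other cells. Epas1 had 26.7, 28.7 and 25.2 CPM in KO libraries, against 33.2, 36.1 and 36.2 CPM in WT libraries. Every KO library lay below every WT library. The log2 fold change was -0.39 (95% interval -0.60 to -0.18), with the smallest unadjusted p of the members, 0.00149. After adjustment over all genes it did not pass (adjusted p = 0.965 in edgeR's test, and 0.204 at the lowest in the alternatives), and the two-sided exact permutation p was 0.1, the smallest possible. Without KO 2 and WT 1 its log2 fold change was -0.47.

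Both members that encode receptors for vascular endothelial growth factor (VEGF), Flt1 and Kdr, had log2 fold changes above 0. Only that of Flt1 had an interval that left out 0. Flt1, which encodes VEGF receptor 1 and binds the ligand tightly with weak signalling, had 6.25, 7.49 and 7.29 CPM in KO libraries, against 5.38, 4.90 and 5.56 CPM in WT libraries. Each KO value lay above each WT value, and Flt1 was the member with the most positive log2 fold change, at 0.41 (95% interval 0.054 to 0.76, unadjusted p = 0.0269, adjusted p = 0.965 in edgeR's test). Kdr, encoding VEGF receptor 2, the main signalling receptor, averaged 3.93 ± 0.759 CPM in KO and 3.81 ± 0.652 in WT (SD, n = 3 each; log2 fold change 0.05, 95% interval -0.42 to 0.51). The Flt1 to Kdr count ratio was 1.37, 1.81 and 2.36 in KO libraries and 1.35, 1.13 and 1.80 in WT libraries. These ratios overlapped, with a two-sided exact permutation p of 0.2 (0.467 adjusted over 7 pairs).

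The Flt1 window is shown because Flt1 ran against most of its subset. Capitals mark AGGAAG, on either strand, a form of the core letters bound by ETS factors, which are known regulators of endothelial genes.
Flt1, chr5:147725962-147726261, minus strand: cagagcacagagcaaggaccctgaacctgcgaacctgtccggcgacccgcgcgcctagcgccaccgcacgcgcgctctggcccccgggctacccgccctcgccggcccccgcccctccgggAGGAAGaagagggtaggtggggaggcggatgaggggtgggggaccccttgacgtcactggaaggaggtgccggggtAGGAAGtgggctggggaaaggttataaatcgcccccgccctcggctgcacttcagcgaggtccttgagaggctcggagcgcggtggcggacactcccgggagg
The matches begin 129 and 53 bases before the start. Counting both strands, AGGAAG was in 5 of 8 endothelial genes with a window (Egfl7, Emcn, Eng, Flt1 and Tie1), in 1 of 9 contractile genes and in 35.4% of all windows. Emcn, Eng, Tie1 and Egfl7, which share the letters with Flt1, had log2 fold changes from -0.27 to -0.03. Kdr and Tek, whose windows lack the letters, had 0.05 and 0.19, and Cldn5, which also lacks them, had -0.25. Any link between the letters and the fold changes was not tested.

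Junction proteins of endothelium were at lower mean levels in KO, within wide intervals. Esam, an endothelial cell adhesion molecule, had 1.80, 2.33 and 2.52 CPM in KO libraries, against 3.66, 2.73 and 3.30 CPM in WT libraries. The groups did not overlap, but the counts behind them were only 32 to 66 reads per library (log2 fold change -0.54, 95% interval -1.05 to -0.038, unadjusted p = 0.0367). Cdh5, encoding VE-cadherin, had 4.73, 5.67 and 6.12 CPM in KO libraries, against 5.88, 7.02 and 9.58 CPM in WT libraries. WT 3 alone stood far above the rest, KO 3 lay above WT 1, and the log2 fold change was -0.44 (95% interval -0.87 to -0.020) and -0.23 without WT 3. For both genes edgeR's test gave an adjusted p = 0.965. Cldn5, the claudin of endothelial tight junctions, was the endothelial member with the highest level per kilobase and had 9.23, 7.60 and 8.98 CPM in KO libraries, against 7.71, 12.9 and 10.1 CPM in WT libraries. WT 1 lay between the KO values (log2 fold change -0.25, 95% interval -0.64 to 0.14, and -0.05 without WT 2). Pecam1, the junction protein CD31, averaged 2.50 ± 0.861 CPM in KO and 2.73 ± 0.593 in WT.

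For the other endothelial members the means differed by less than the larger of the SDs. Tek, the angiopoietin receptor, averaged 2.65 ± 0.620 CPM in KO and 2.33 ± 0.278 in WT, and Tie1, its partner receptor, 2.14 ± 0.406 in KO and 2.44 ± 0.403 in WT (SD, n = 3 each). Their log2 fold changes were 0.19 and -0.19. Vwf, the von Willebrand clotting factor, averaged 18.4 ± 2.52 CPM in KO and 18.7 ± 2.64 in WT. Eng, a co-receptor for transforming growth factor beta, averaged 6.31 ± 0.796 CPM in KO and 6.94 ± 0.971 in WT. Egfl7, a secreted protein of endothelium, averaged 4.64 ± 0.965 CPM in KO and 4.73 ± 1.17 in WT. Emcn, the sialomucin endomucin, had 14, 15 and 15 reads in KO libraries and 10, 28 and 16 in WT libraries. WT 2 and WT 1 were its highest and lowest libraries, 2.81 times apart in CPM, the widest range of the tested members.

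The summed endothelial level was 95.2, 90.2 and 89.3 CPM in KO libraries, against 93.0, 107 and 112 CPM in WT libraries. WT 1 lay among the KO values, and the log2 ratio of the means was -0.19, or -0.25 without KO 2 and WT 1. Epas1 held 31.7% of this sum. Without it the sums were 68.5, 61.4 and 64.1 CPM in KO, against 59.8, 71.1 and 75.9 CPM in WT, a log2 ratio of -0.09. Of the 13 genes 10 had a log2 fold change below 0, with a median of -0.14.

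**Figure D3:**
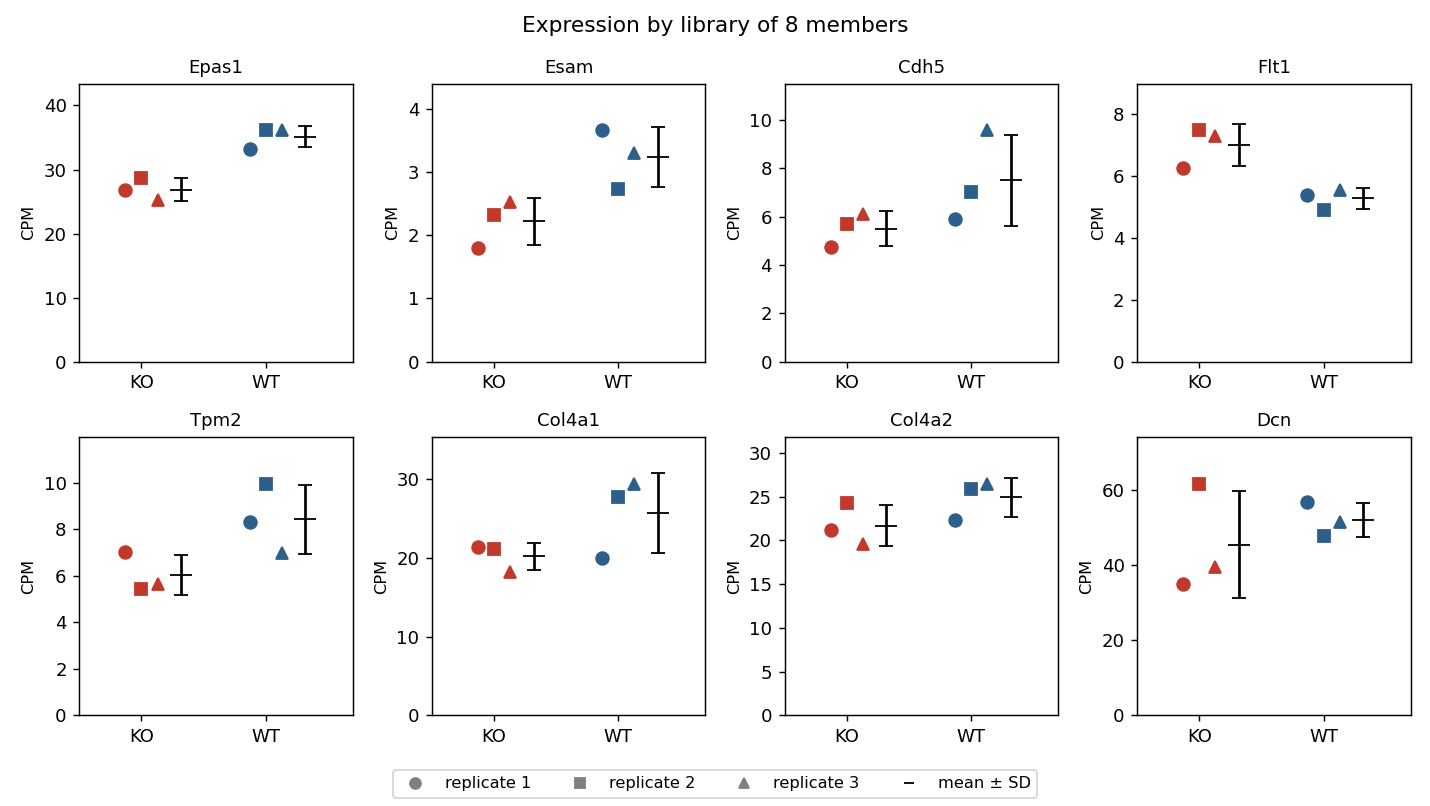
CPM (y axis, from 0) of 8 members in the 3 KO libraries (left of each panel) and the 3 WT libraries (right), with marker shapes for the replicate number and the mean ± SD beside them. KO and WT do not overlap for Epas1, Esam and Flt1, whereas for Cdh5, Tpm2, Col4a1, Col4a2 and Dcn they do.

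Receptor and pericyte genes had fold changes close to 1 with intervals that held 1. Pdgfra, the platelet-derived growth factor receptor of stromal and Leydig lineage cells, had 12.5, 15.3 and 14.2 CPM in KO libraries, against 14.3, 12.9 and 16.0 CPM in WT libraries (log2 fold change -0.04). Pdgfrb, the receptor of pericytes, averaged 2.44 ± 0.442 CPM in KO and 2.31 ± 0.562 in WT (SD, n = 3 each). Rgs5, a regulator of G-protein signalling that marks pericytes, had 6.64, 7.55 and 5.55 CPM in KO libraries, against 4.60, 7.36 and 6.33 CPM in WT libraries. Its KO range lay inside the WT range at the lower end and passed it only in KO 2. Notch3, a receptor that vascular smooth muscle and pericytes need, had 2.14, 2.16 and 2.30 CPM in KO libraries, against 2.33, 2.84 and 2.31 CPM in WT libraries. These did not overlap, but KO 3 and WT 3 were nearly equal, and the 95% interval of the log2 fold change ran from -0.68 to 0.32. The summed level of these 4 genes averaged 25.2 ± 2.35 CPM in KO and 25.3 ± 2.24 in WT, a log2 ratio of -0.0044, and -0.15 without KO 2 and WT 1.

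Collagen and matrix genes had log2 fold changes below 0 in 6 of 6 cases, each too small to pass. They ran from -0.35 for Col4a1 to -0.18 for Col3a1, with a median of -0.21, against -0.0025 over all tested genes. Col4a1 and Col4a2 encode the chains of the type IV collagen that forms the network of basement membranes, the tubule wall and capillaries included. Col4a1 had 21.3, 21.0 and 18.2 CPM in KO libraries, against 19.9, 27.7 and 29.4 CPM in WT libraries. WT 1 lay among the KO libraries and the other WT libraries well above them (log2 fold change -0.35, 95% interval -0.65 to -0.045, unadjusted p = 0.0271, adjusted p = 0.965 in edgeR's test). Col4a2 had 21.2, 24.2 and 19.6 CPM in KO libraries, against 22.4, 25.9 and 26.5 CPM in WT libraries, with KO 2 above WT 1 (log2 fold change -0.20, 95% interval -0.45 to 0.050). Both were highest in WT 3 and lowest in KO 3. Their count ratio stayed between 0.869 and 1.11 in the 6 libraries.

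The genes of these chains sit head to head on chromosome 8, with their starts so close that 22 bases are annotated to both, on opposite strands. The promoter windows of Col4a1 and Col4a2 each held CCAAT and GGGCGG on either strand. CCAAT was in 37.4% and GGGCGG in 35.7% of all windows, and each was in 3 of the 4 matrix genes with a window. Col4a1 and Col4a2 are among those 3, and with starts so close their windows may cover the same bases. The 22 shared bases hold GGGCGG, so a site may be counted for both genes. Reads in the shared bases cannot be assigned with certainty, and shared bases make up 0.295% of the exons of Col4a1 and, with those of the antisense gene Gm15419, 0.982% of the exons of Col4a2.

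Type I and type III collagens form the fibrils of the interstitium. Col1a1 and Col1a2, the chains of type I collagen, averaged 12.9 ± 2.50 and 28.7 ± 3.61 CPM in KO, against 15.2 ± 3.47 and 33.3 ± 4.39 CPM in WT (SD, n = 3 each). Their log2 fold changes were -0.24 (95% interval -0.62 to 0.14) and -0.21 (95% interval -0.47 to 0.047). Without WT 3 the log2 fold change of Col1a1 was -0.04, and that of Col1a2 ran from -0.32 to -0.13 when 1 library was left out. The Col1a1 to Col1a2 count ratio was 0.448 ± 0.0456 in KO and 0.458 ± 0.0902 in WT, with a two-sided exact permutation p of 1. Col3a1, the type III chain, had 19.1, 20.2 and 14.7 CPM in KO libraries, against 15.6, 23.6 and 21.8 CPM in WT libraries, so that WT 1 again lay among the KO values. Its log2 fold change of -0.18 became -0.05 without KO 3 and -0.06 without WT 2. These 3 genes, like both type IV chains, were lowest in KO 3.

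Dcn encodes decorin, a proteoglycan that binds collagen fibrils and marks stromal and peritubular cells. It had the highest level per kilobase of the matrix genes, at 7.78 CPM per kilobase in KO and 8.91 in WT. Dcn had 35.1, 61.7 and 39.5 CPM in KO libraries, against 56.8, 47.7 and 51.6 CPM in WT libraries. KO 2 was the highest of all 6 and the other KO libraries the lowest, and within WT the highest was WT 1. The log2 fold change was -0.20 (95% interval -0.54 to 0.15), -0.48 (adjusted p = 0.219 in edgeR's test) without KO 2 and -0.04 without KO 1.

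The summed collagen and matrix level was 136, 176 and 129 CPM in KO libraries, against 155, 176 and 183 CPM in WT libraries. KO 2 was level with WT 2, while KO 1 and KO 3 lay below every WT library. The log2 ratio of the means was -0.22. It was -0.37 without KO 2, -0.14 without KO 3 and -0.43 without KO 2 and WT 1 together. Leaving out Dcn gave sums of 101, 114 and 89.6 CPM in KO, against 98.7, 128 and 131 CPM in WT, a log2 ratio of -0.24.

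**Figure D4:**
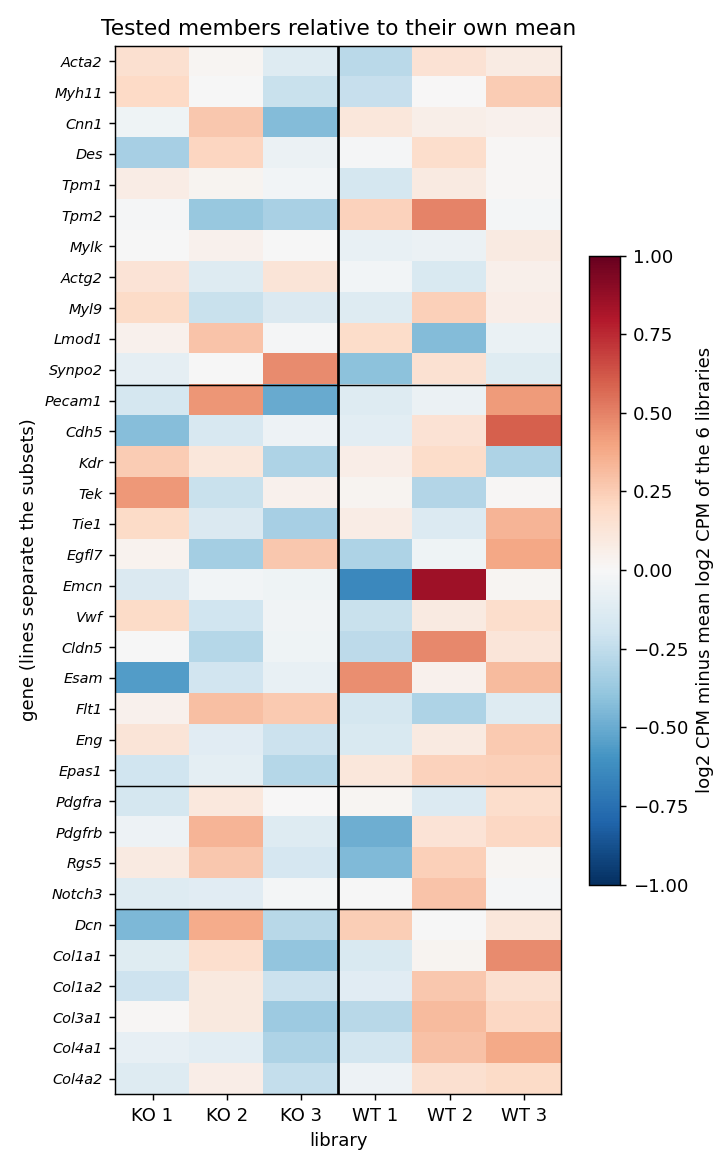
Log2 CPM of each of the 34 tested members minus its mean over the 6 libraries (colour scale), with KO 1 to KO 3 left of the vertical line and WT 1 to WT 3 right of it, and horizontal lines between the subsets. KO 3 is the lowest library for 10 members and WT 1 for 9, and WT 3 is the highest for 11.

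Members did not vary as one block across the libraries. The highest library was WT 3 for 11 members, KO 2 for 8, WT 2 for 8 and KO 1 for 5, and the highest was at a median of 1.60 times the lowest. Only Emcn, Esam and Cdh5 among the tested members differed by more than 2-fold between any libraries. The Leydig cell gene Cyp17a1, an enzyme of androgen synthesis, had 277, 65.1 and 145 CPM in KO libraries and 21.1, 358 and 243 CPM in WT libraries, a far wider spread. The members lay on 14 chromosomes and 0 of them on chromosome 12, which carries the deleted gene.

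Other genes of the same pathways also gave no call, with 0 called in each of the 3 lists. Of 27 tested ligands and signalling genes 10 had a log2 fold change above 0 and 17 below, with a median of -0.10. Vegfd, a growth factor ligand of lymphatic and blood vessels, had 1.41, 1.08 and 1.57 CPM in KO libraries, against 1.55, 3.79 and 2.64 CPM in WT libraries (log2 fold change -0.97, 95% interval -1.68 to -0.27, unadjusted p = 0.0101). WT 1 was at the level of KO and the other WT libraries above it. Tgfb1, the ligand that acts through Eng, averaged 12.4 ± 0.699 CPM in KO and 15.6 ± 2.29 in WT without overlap (log2 fold change -0.34), and Nrp1, a co-receptor of the VEGF receptors, had a log2 fold change of -0.48 (95% interval -1.02 to 0.062). The other HIF subunit genes Hif1a and Arnt had log2 fold changes of 0.10 and -0.07.

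Of 31 further basement membrane and matrix genes 13 lay above 0 and 18 below, with a median of -0.09. Sparc, a collagen-binding matrix protein, had 318, 314 and 312 CPM in KO libraries, against 313, 395 and 398 CPM in WT libraries, with WT 1 at the KO level (log2 fold change -0.23, 95% interval -0.41 to -0.042). Col15a1, a basement membrane collagen, went the other way, at 16.1, 8.57 and 14.8 CPM in KO libraries, against 7.71, 10.4 and 10.5 CPM in WT libraries (log2 fold change 0.47). Serpinh1, the collagen chaperone, had -0.31. Of 22 further contractile genes 10 lay above 0 and 12 below, with a median of -0.03. Srf, encoding the factor that binds CArG boxes, averaged 49.3 ± 9.51 CPM in KO and 59.8 ± 4.47 in WT (log2 fold change -0.28, 95% interval -0.54 to -0.014). Kcnmb1, a potassium channel subunit of smooth muscle, had 11, 11 and 13 reads in KO libraries, against 4, 5 and 5 in WT libraries (log2 fold change 1.32, 95% interval 0.31 to 2.34). Mrvi1, a smooth muscle signalling protein, had 0.58. The adjusted p from edgeR's test was 0.965 for each of these 9 leading genes.

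Markers of other testis cells were measured beside the members. All 12 macrophage markers had a log2 fold change below 0, with sums of 95.7 to 120 CPM in KO and 118 to 143 in WT. For 13 Sertoli cell markers 8 lay below 0, with sums of 1824 to 1920 CPM in KO and 1922 to 2185 in WT, and for 8 Leydig cell markers all 8, with sums of 297 to 688 CPM in KO and 264 to 928 in WT. Of all tested genes 50.7% had a log2 fold change below 0. At an unadjusted p under 0.05 in edgeR's test, 4 of the 12 macrophage and 4 of the 13 Sertoli cell markers were lower in KO. Of the 8 Leydig cell markers 1 was lower, and in each of these 3 lists 0 were higher. Among all tested genes 2.22% were lower and 2.41% higher. No marker of these 3 lists was called, with adjusted p of 0.965 or more in edgeR's test. Markers of a list come from the same cells and were chosen with results known, so these counts are no test. No marker of these 3 lists was at 0 in all libraries. Blood genes summed to 16.7 to 31.9 CPM in KO and 27.2 to 43.1 in WT, and Alas2 held 54.5% of this sum. The part of these cells in the values of the members was not tested. Skeletal muscle genes, which could add contractile transcripts, summed to 2.52 to 3.54 CPM in KO and 3.36 to 3.66 in WT, with Tnnc2 at 0 in every library. Adipose genes summed to 15.4 to 18.8 CPM in KO and 12.6 to 14.8 in WT. Mesothelial genes summed to 3.49 to 4.26 CPM in KO and 3.06 to 3.69 in WT. Epididymal genes summed to 4.14 to 4.73 CPM in KO and 3.51 to 4.79 in WT, with Lcn5, Lcn8 and Spink13 at 0 in every library. Single genes made up most of these sums. Adipoq held 82.2% of the adipose, Lrrn4 93.2% of the mesothelial and Rnase10 95.5% of the epididymal sum.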

How the data were processed

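Total RNA from whole testis was isolated with TRIzol and made into libraries with a VAHTS mRNA-seq v2 kit, per the labels' protocols. HISAT2 2.0.0 and the mm10 build are named in the submitters' processing notes. Raw counts of reads for each Ensembl gene, with coordinates and gene length, were deposited by the authors, per the file headers. The counting tool, annotation release and strand setting were not stated there. Columns were matched to samples by genotype and replicate number.

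Low counts were removed with filterByExpr of edgeR (count 10, total 15), which left 19320 of 54532 genes. KO was compared with WT with edgeR 4.0.16 (TMM, glmQLFit and glmQLFTest, all 6 libraries, no covariate), in R 4.3.3. The 95% intervals rest on moderated standard errors, and SDs are over 3 libraries. Alternatives used DESeq2 1.42.0, limma 3.58.1 and the settings named in the closing section. The fit was tested on simulated counts. The 2 libraries of lowest chi-square per degree of freedom, KO 2 and WT 1 at 4.07, lay further apart than sampling noise allows. No library was treated as a copy. KO 1 and WT 3 came next at 4.11, and the closest pair within a genotype was KO 1 and KO 3 at 4.89. Shared exonic bases came from GENCODE M21, in which 32 of the 35 members have the table's coordinates. Levels per kilobase used the authors' gene lengths.

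The members, subsets, pathway lists (vascular ligands and signalling, basement membrane and matrix, contractile) and marker lists (Leydig, Sertoli, macrophage, blood, skeletal muscle, adipose, mesothelial and epididymal) were chosen with earlier results of these data known. All members are reported, with values in every library for those with an unadjusted p under 0.05, without overlap, most abundant per kilobase in their subset or with over 2-fold range, and for some others chosen after their values were seen. From each pathway list the 3 genes with the smallest p are named; Hif1a, Arnt and Cyp17a1 were added after their values were seen.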

Additional observations from a re-analysis of the deposited data

How the results depend on the processing

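With each of 15 alternatives, 0 of the members were called. A filter at a mean of 5 CPM also removed Cnn1, Lmod1, Synpo2, Pecam1, Kdr, Tek, Tie1, Egfl7, Emcn, Esam, Pdgfrb and Notch3. These genes could not be called in that alternative. The number of genes called over the whole table, 1 with all libraries, was 2 with DESeq2, 50 with no low-count filter, 9 without KO 2 and WT 1 together, and 1 to 3 when 1 library was left out (2 without KO 3, 3 without WT 2 and 2 without WT 3). The smallest adjusted p of any member was 0.204, for Epas1 with no filter. Direction held for 19 of the 34 tested members in every alternative that tested the gene. Among them were Epas1, Flt1, Esam, Cdh5, Tpm2 and the 6 collagen and matrix genes. With 1 library left out, Cldn5 ran from -0.42 to -0.05, Col1a1 from -0.39 to -0.04, Col3a1 from -0.33 to -0.05 and Dcn from -0.48 to -0.04. The other 15 reversed only when libraries were left out. Without KO 2 and WT 1 together the log2 fold change was -0.088 for Acta2, -0.024 for Tpm1, -0.017 for Mylk, -0.26 for Pdgfrb and -0.16 for Rgs5. With 1 library left out it ran from -0.093 to 0.10 for Acta2, -0.14 to 0.11 for Myh11, -0.29 to 0.047 for Cnn1, -0.24 to 0.026 for Des, -0.026 to 0.11 for Tpm1, -0.0051 to 0.078 for Mylk, -0.43 to 0.065 for Pecam1, -0.086 to 0.19 for Kdr, -0.0080 to 0.33 for Tek, -0.18 to 0.18 for Egfl7, -0.56 to 0.20 for Emcn, -0.14 to 0.063 for Vwf, -0.12 to 0.043 for Pdgfra, -0.11 to 0.21 for Pdgfrb and -0.056 to 0.26 for Rgs5. The log2 ratio of subset sums moved beyond the spread between replicates without KO 2 and WT 1 together, to -0.15 for receptor and pericyte genes, -0.43 for collagen and matrix genes and -0.44 for these without Dcn. The cause was not tested. With 1 library left out the ratio ran from -0.02 to 0.09 for contractile genes (-0.11 to 0.02 without Actg2), -0.26 to -0.13 for endothelial genes (-0.19 to -0.02 without Epas1), -0.08 to 0.06 for receptor and pericyte genes and -0.37 to -0.14 for collagen and matrix genes (-0.35 to -0.15 without Dcn). The sums without Actg2, Epas1 or Dcn were chosen after seeing the data. With the replicate number as a block, 1 gene and 0 members were called. The numbers are not shown to pair the libraries: the deviations of same-numbered libraries correlated at -0.17, -0.029 and 0.11, and KO 1 and KO 2 correlated best with WT 2 and WT 1. Depth limits Tagln, Emcn and Synpo2 most, with at most 31 reads per library.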

Other observations

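Some transcripts of fat and mesothelium, chosen here after their values were seen, were highest in KO 2, while the most abundant genes of both lists were not. Cfd, encoding adipsin of fat cells, had 1, 27 and 0 reads in KO 1 to KO 3 and 0, 2 and 0 in WT 1 to WT 3. Cidec, a lipid droplet protein gene, had 3, 24 and 1 reads in KO and 10, 5 and 2 in WT, and Lep, encoding leptin, 2, 16 and 6 in KO and 3, 4 and 1 in WT. Upk3b, a mesothelial gene, had 5, 13 and 2 reads in KO and 1, 0 and 0 in WT. Adipoq, the most abundant gene of the adipose list, did not follow them, at 14.1, 10.6 and 17.2 CPM in KO and 10.7, 12.3 and 11.9 in WT. Plin1, a lipid droplet coat gene, was lowest in KO 2, at 2.59, 0.965 and 1.23 CPM in KO and 1.28, 1.89 and 2.59 in WT. Lrrn4, 93.2% of the mesothelial sum, had 3.21, 3.29 and 3.53 CPM in KO and 3.49, 3.06 and 3.63 in WT. KO 2 was also the library with the highest level of Dcn. The part of such tissue in the level of Dcn was not tested.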
